A study of Mus musculus with 6 samples.

Results

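The genes described here encode actin bundling, adhesion plaque and motor proteins, many of them known from the ectoplasmic specialization of Sertoli cells. They comprised 24 genes whose platform symbol is Myo followed by a digit, which are the unconventional myosins, and 17 genes named singly: Espn, Vcl, Actn1, Actn4, Pls1, Pls3, Fscn1, Eps8, Cttn, Actr2, Actr3, Wasl, Palld, Tln1, Tes, Zyx and Myoz2. Of these, 40 were measured by at least 1 probe set (a group of short probes against 1 transcript) carrying that single symbol, out of 18194 such genes on the array. Actr2 was not analysed here. With 1 probe set per gene, the brightest, 30 of the 40 genes exceeded the limit for dim genes (mean log2 expression above 6.64) and were tested, 14 of them myosins.

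RNA came from whole testes of 12-week-old mice, with 3 arrays labelled jsd and 3 labelled SCARKO-jsd. Both groups carry jsd, a mutation of Utp14b with which spermatogenesis stops at the spermatogonia. The SCARKO-jsd mice have, in addition, a conditional knockout made in Sertoli cells, and the Cre driver was not stated in the labels. The comparison of the groups asks which transcripts change with the knockout when few germ cells are present. Values were log2 expression and each difference is SCARKO-jsd minus jsd. Values by array are listed in the order of replicates 1, 2 and 3. In whole-testis RNA, fewer cells of a type and less RNA per cell cannot be told apart.

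The ectoplasmic specialization is an anchoring junction found in the testis, where Sertoli cells meet each other at the blood-testis barrier and where they hold the heads of elongating spermatids. Parallel actin filaments are packed into bundles between the Sertoli cell membrane and a cistern of endoplasmic reticulum. Espin, plastins and other crosslinkers keep the bundles together, the Arp2/3 complex and its activators turn them into branched networks when the junction is taken apart, and myosins move vesicles and membrane along the filaments.

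The array SCARKO-jsd 2 stood apart from the other 5, so results are also given without it. Its beta-actin signal was 1.66 log2 units higher at the 3' than at the 5' end of the transcript, against 0.70 to 0.98 in the other arrays, and its best correlation with another array across genes was 0.973, against 0.990 to 0.994. Its median over probe sets was 6.26, against 6.40 to 6.41. The labels were checked on Rhox5, an androgen-dependent homeobox gene of Sertoli cells, which lay between 9.74 and 10.43 in jsd and between 5.44 and 6.11 in SCARKO-jsd arrays. Over all 10916 genes tested, 3.57% passed the threshold, 1.78% with higher and 1.80% with lower values in SCARKO-jsd. Of 15 tested Sertoli cell markers 3 fell and 0 rose, with summed levels of 16.11 to 16.29 in jsd and 16.04 to 16.18 in SCARKO-jsd. Those that fell were Rhox5, the same gene as in the check of the labels, Tsx and Wt1. Of the 15 differences 5 were above and 10 below 0, with Inha and Amh highest at 0.33 each, short of the threshold. Among spermatogonial markers 3 of 11 rose (Uchl1, Dazl and Stra8) and 1 fell (Id4). Of these 11 differences 8 were above and 3 below 0, with a median of 0.68, and 9 genes had an unadjusted p under 0.05 by limma. Among meiotic and spermatid markers 2 of 4 tested genes rose (Sycp3 and Meig1), and 8 were too dim to test. In that list Prm1, a protamine of spermatids, differed by 0.08 ± 0.19. The summed level of the first of these germ cell lists was 12.77 to 13.04 in jsd and 13.02 to 13.29 in SCARKO-jsd, and that of the second 9.68 to 9.98 and 10.33 to 10.58. No tested marker of smooth muscle (12), Leydig cells (5), macrophages (7), skeletal muscle (4) or heart muscle (3) passed the threshold by limma, and of these 5 lists the macrophages and skeletal muscle held 1 gene each with an unadjusted p under 0.05 (Fcer1g and Actn3). Of all 10916 genes tested, 1960 had an unadjusted p under 0.05. Among endothelial markers 1 of 6 fell (Kdr), while the other 5 had differences above 0 and did not pass (list median 0.20). The part of these cell types in the results below was not tested.

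Most of the actin and myosin genes did not pass the test, and the 3 that did lay at the extremes. Myoz2, a calsarcin that binds alpha-actinin at the Z-disc of muscle, fell 4.93-fold, Myo5b, a motor of recycling endosomes, fell 3.35-fold, and Pls1, a plastin that bundles actin, rose 1.81-fold. The other 27 did not pass (limma, Benjamini-Hochberg adjusted p of 0.05 or more). Over all genes tested, as given above, 3.57% passed. Myoz2 and Myo5b were known to be among the largest falls when the list was drawn up, so nothing is read from the share of the 30. Their median log2 difference was 0.04, the same as the 0.04 of all genes tested, with 17 differences above and 13 below 0. In the plot of differences for the 30 genes, 27 lie between -0.53 and 0.46.

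**Figure D1:**
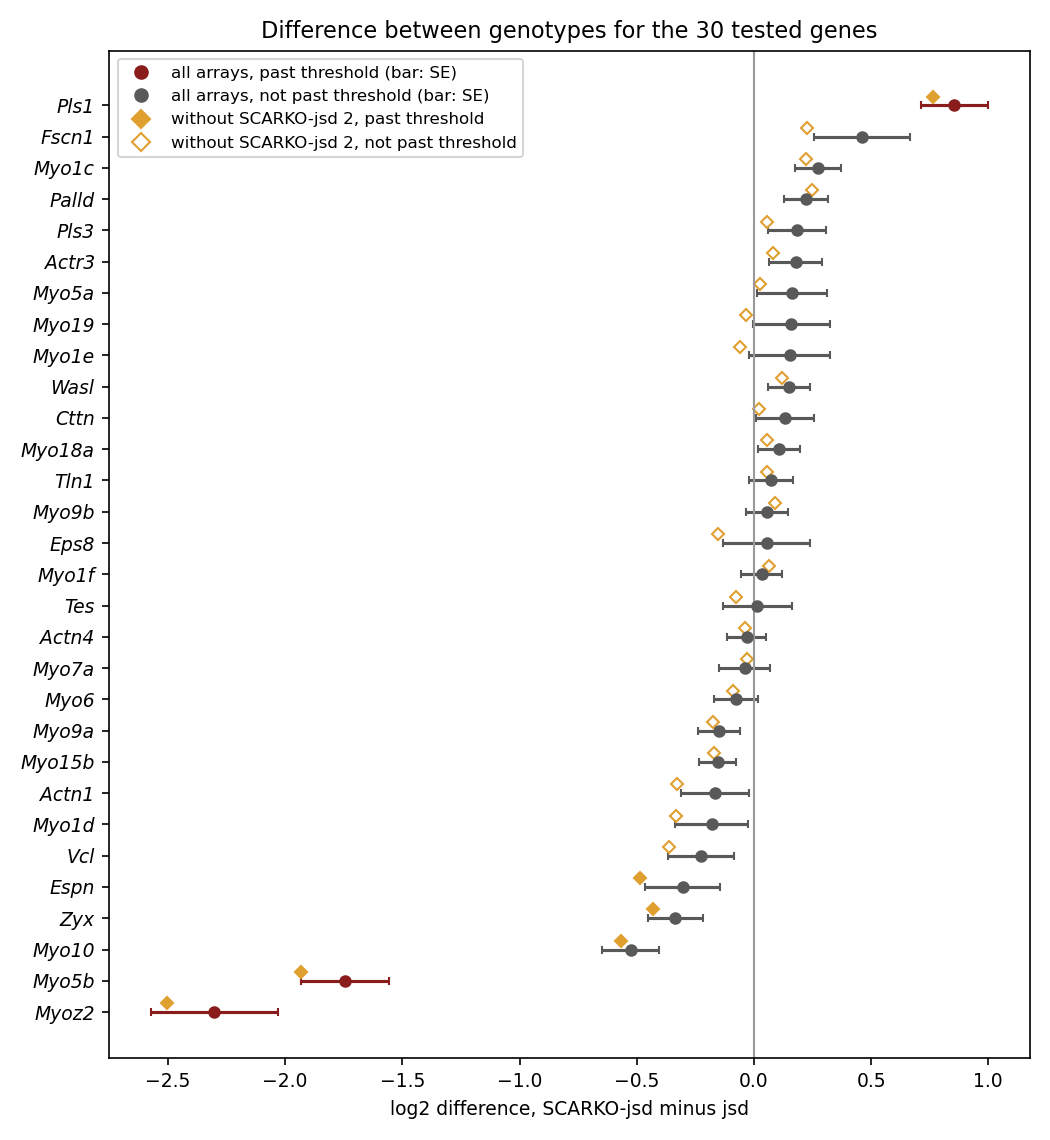
Log2 difference between SCARKO-jsd and jsd testes for each of the 30 tested genes (circles, all 6 arrays, bars give the SE) and the same without the array SCARKO-jsd 2 (diamonds). Myoz2 (-2.30), Myo5b (-1.74) and Pls1 (0.86) are past the threshold, and Myo10, Zyx and Espn join them without SCARKO-jsd 2.

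Without SCARKO-jsd 2, 6 of the 30 genes passed, 5 of them lower. Espn, Myo10 and Zyx were added to the 3 above. Over all genes that fit called 7.04% (300 genes higher, 468 lower), so calls increased over the whole table as well. For the reason given above, nothing is read from the share of the 30 here either. The median of the 30 differences was then -0.04, and that of all genes was 0.003.

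Without overlap between groups, 6 of the 30 genes were lower (Myoz2, Myo5b, Myo10, Zyx, Myo15b and Myo9a) and 5 were higher (Pls1, Fscn1, Myo1c, Palld and Wasl). Over all tested genes this held for 9.49% in the lower and 15.1% in the higher direction.

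**Figure D2:**
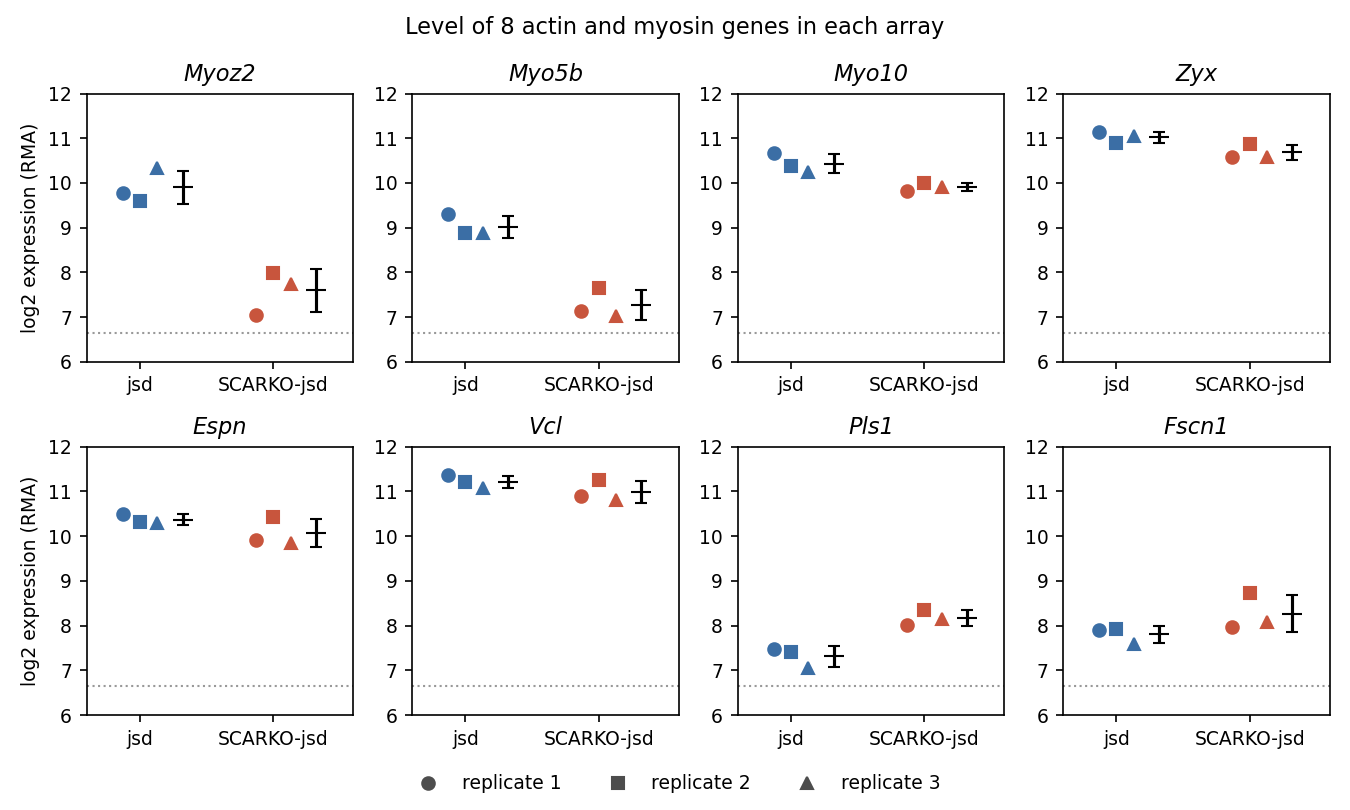
Log2 expression of 8 genes in each of the 6 arrays (symbols mark the replicate number), with the mean and SD of each group in black and the limit for dim genes as a dotted line. The groups are apart for Myoz2, Myo5b, Myo10, Zyx, Pls1 and Fscn1, while for Espn and Vcl the array SCARKO-jsd 2 lies among the jsd arrays.

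Myoz2 showed the widest gap of the 30 genes. Its log2 expression stood at 9.77, 9.60 and 10.33 on the jsd side and at 7.05, 7.997 and 7.74 on the SCARKO-jsd side. Every SCARKO-jsd array lay far under every jsd array, and SCARKO-jsd 1 was lowest. This is a difference of -2.30 ± 0.27 (SE; limma, Benjamini-Hochberg adjusted p = 0.00650) that passed with any 1 array left out (-2.50 to -2.03). Myoz2 has 1 probe set, so no other probe set bears on it.

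Genes that accompany Myoz2 in striated muscle were mostly dim in these testes, and their part in its fall was not tested. Summed over 17 skeletal muscle markers, of which 4 exceeded the limit, the level was 10.57 to 10.64 in jsd and 10.41 to 11.02 in SCARKO-jsd, and over 8 heart markers it was 10.82 to 11.20 and 10.73 to 11.29. Of the 17 and 8 markers, 4 and 3 were tested and did not pass, and they differed in both directions. In the heart list the cardiac troponins Tnni3 and Tnnt2 differed by -0.44 ± 0.19 and -0.05 ± 0.15, and the cardiac myosin Myh6 by 0.76 ± 0.45. In the skeletal list the slow myosin Myh7 differed by 0.48 ± 0.28, Mylpf, a fast light chain, by 0.14 ± 0.097, and myoglobin (Mb) by 0.09 ± 0.090. Dim markers included Ckm, the muscle creatine kinase, and Acta1, skeletal actin. The related calsarcin Myoz1 (0.13 ± 0.098 SE) did not pass, and Myoz3 was dim. Actn3, an alpha-actinin of fast muscle fibres and the remaining tested skeletal marker, had a difference of -0.61 ± 0.14 (limma, Benjamini-Hochberg adjusted p = 0.0681) with no overlap between the groups, and it passed without SCARKO-jsd 2 (-0.75; 0.00539 by the same test). These marker genes, Myoz1 and Myoz3 are named after their values were seen.

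Pls1, also called fimbrin or I-plastin, was higher in every SCARKO-jsd array. Its log2 expression came to 7.47, 7.42 and 7.05 for jsd and to 8.02, 8.36 and 8.14 for SCARKO-jsd. The 2 groups did not overlap, and jsd 3 was lowest. The difference was 0.86 ± 0.14 (SE; limma, Benjamini-Hochberg adjusted p = 0.0205). Leaving out jsd 1, jsd 2 or SCARKO-jsd 3 ended the call (limma, Benjamini-Hochberg adjusted p = 0.0716, 0.0785 and 0.0812), while the difference stayed between 0.72 and 0.93. The call was also lost when every probe set was tested by itself (0.0669). Some germ cell markers, given above, rose in SCARKO-jsd testes too, and their part in the rise of Pls1 was not tested.

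Promoter sequences are shown for Myoz2 and Pls1, which changed in opposite directions, and for Vcl, the adhesion plaque gene whose promoter carried a CArG box, the motif bound by serum response factor in many actin cytoskeleton genes. Each is the 250 bases before the start of transcription (RefSeq, GRCm38.p6), 5' to 3' on the strand of the gene, with a CArG box in capitals. The positions are chr3:123034988-123035237 (minus strand) for Myoz2, chr9:95845280-95845529 (minus strand) for Pls1 and chr14:20929148-20929397 (plus strand) for Vcl.
Myoz2: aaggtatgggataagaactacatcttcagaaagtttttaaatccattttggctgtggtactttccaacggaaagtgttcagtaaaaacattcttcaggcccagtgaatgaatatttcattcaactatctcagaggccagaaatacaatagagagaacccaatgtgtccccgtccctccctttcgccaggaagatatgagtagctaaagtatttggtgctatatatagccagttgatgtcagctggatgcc
Pls1: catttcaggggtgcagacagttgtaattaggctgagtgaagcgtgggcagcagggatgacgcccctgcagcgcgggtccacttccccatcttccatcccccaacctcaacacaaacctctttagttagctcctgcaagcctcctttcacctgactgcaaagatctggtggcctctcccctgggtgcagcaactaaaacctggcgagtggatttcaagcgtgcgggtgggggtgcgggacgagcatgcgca
Vcl: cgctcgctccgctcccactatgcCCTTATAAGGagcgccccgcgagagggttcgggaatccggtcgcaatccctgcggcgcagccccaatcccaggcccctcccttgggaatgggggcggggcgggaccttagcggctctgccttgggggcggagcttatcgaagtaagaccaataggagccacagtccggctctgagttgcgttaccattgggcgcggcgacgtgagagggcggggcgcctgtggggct

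A promoter window was listed for 34 of the 40 genes, 46 windows in all. Myo5b had no window listed, so its promoter was not searched. A CArG box was in 2 windows, those of Vcl and Myo1e (4.35%), against 1.47% of all 32851 windows of the same length. The hexamer AGAACA, one arm of the androgen response element, on either strand, was in the windows of Palld and Myo16 (4.35%), against 16.1% of all windows. The windows of Myoz2 and Pls1 held neither run of letters, which says nothing about other parts of these genes.

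Among the myosins, Myo5b fell, and 13 of 14 tested genes did not pass. For Myo5b, a class V motor that carries recycling endosomes with Rab11 along actin, log2 expression ran 9.31, 8.88 and 8.88 across the jsd arrays, then 7.15, 7.65 and 7.03 across the SCARKO-jsd arrays. All jsd arrays lay over all SCARKO-jsd arrays, and SCARKO-jsd 2 was the highest of its group. The difference was -1.74 ± 0.19 (SE; limma, Benjamini-Hochberg adjusted p = 0.00457) and -1.93 ± 0.14 without SCARKO-jsd 2, and it passed with any 1 array left out.

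A second probe set of Myo5b, with a mean just under the dim limit, stood at 7.61, 7.17 and 6.99 on the jsd side and at 5.59, 6.07 and 5.97 on the SCARKO-jsd side, again without overlap. The third, dimmer still, gave a difference of -0.25. The mean of the 3 probe sets gave -1.12, which passed. Of the other class V myosins, Myo5a, which carries melanosomes and other organelles, differed by 0.16 ± 0.15 on the probe set used and by -0.03 and 0.01 on its other bright probe sets, and Myo5c was dim. Genes that act with Myo5b through Rab11 are described with the pathway lists.

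Myo10, a motor of filopodial tips, was lower in every SCARKO-jsd array but did not pass with all 6. Its log2 expression came to 10.67, 10.39 and 10.25 for jsd and to 9.83, 9.99 and 9.91 for SCARKO-jsd. The groups were apart, with jsd 1 highest. The difference was -0.53 ± 0.12 (SE; limma, Benjamini-Hochberg adjusted p = 0.0649), and it passed without SCARKO-jsd 2 (-0.57, adjusted p by limma and Benjamini-Hochberg 0.0370), when its probe sets were averaged (-0.59, 0.0402) and with a variance prior that was both mean-dependent and robust (0.0429). These were 3 of 14 alternatives. It did not pass with any other array left out (up to 0.210 by the same test, without jsd 1) or with median centring (0.17). Its other probe sets gave -0.90 and -0.61, both bright, and -0.34, dim. All 4 thus had the same sign, and on the 3 bright ones the groups did not overlap.

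The class I myosins, single-headed motors that link membranes to actin, differed little on the probe sets used. Myo1c lay between 10.00 and 10.05 in jsd and between 10.13 and 10.40 in SCARKO-jsd, which do not overlap. The difference was 0.27 ± 0.098 (SE; limma, Benjamini-Hochberg adjusted p = 0.195), and its other bright probe sets gave 0.32, 0.44 and -0.11, the last with SCARKO-jsd 2 at 7.67, under the 8.004 to 8.45 of all other arrays. Myo1d differed by -0.18 ± 0.16, Myo1e by 0.15 ± 0.17 and Myo1f, which is known from leukocytes, by 0.03 ± 0.087. The difference of Myo1e turned to -0.06 without SCARKO-jsd 2, whose value of 7.59 lay over the 6.91 to 7.06 of the other arrays. None of the 4 passed.

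The remaining tested myosins also differed by little. Myo6, which moves towards the minus end of actin filaments and takes part in endocytosis, differed by -0.08 ± 0.095, and its other bright probe sets gave -0.10 and -0.23. Myo7a, a motor of stereocilia that is also known from Sertoli cells and spermatids, lay between 10.68 and 10.98 in jsd and between 10.73 and 10.93 in SCARKO-jsd, a difference of -0.04 ± 0.11. Its SCARKO-jsd arrays lay within the jsd range. The class IX myosins differed by -0.15 ± 0.091 for Myo9a and 0.06 ± 0.088 for Myo9b. Myo9a did not overlap between the groups on the probe set used, at 7.69 to 7.89 in jsd and 7.56 to 7.68 in SCARKO-jsd, and its other bright probe set gave -0.30.

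Myo15b, at -0.16 ± 0.080, was 7.18 to 7.28 in jsd and 7.05 to 7.11 in SCARKO-jsd, a small gap near the dim limit. Myo18a, a Golgi-associated myosin, differed by 0.11 ± 0.088, and Myo19, a motor on mitochondria, by 0.16 ± 0.17, with -0.03 without SCARKO-jsd 2. Over the 14 tested myosins 7 differences were above and 7 below 0, with a median of -0.004.

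A further 10 myosins were too dim to be tested. These were Myo1a, Myo1g, Myo1h, Myo3a, Myo3b, Myo5c, Myo7b, Myo15, Myo16 and Myo18b, with mean log2 expression between 3.65 and 6.58. Tested without the filter on dim genes, their differences ran from -0.09 (Myo3a) to 0.21 (Myo1h), and 0 passed the threshold by limma, with Benjamini-Hochberg adjusted p of at least 0.527 and an unadjusted p under 0.05 in 0 of them. A change in such dim genes may go unseen on these arrays.

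Espn, the bundling protein that marks the ectoplasmic specialization, was lower in 2 SCARKO-jsd arrays than in all jsd arrays. Its log2 expression came to 10.50, 10.31 and 10.29 for jsd and to 9.92, 10.42 and 9.85 for SCARKO-jsd. Only SCARKO-jsd 2 fell within the jsd range. The difference was -0.30 ± 0.16 (SE; limma, Benjamini-Hochberg adjusted p = 0.378) with all arrays and -0.48 ± 0.099 (0.0259 by the same test) without SCARKO-jsd 2. Espn has 1 probe set, and its call thus rests on leaving out that array.

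The other bundlers and crosslinkers among the 17 singly named genes, besides Pls1, did not pass. Pls3, the plastin of most tissues, ran 9.54, 9.64 and 9.59 across the jsd arrays, then 9.71, 10.03 and 9.58 across the SCARKO-jsd arrays, a difference of 0.18 ± 0.13 that was 0.06 without SCARKO-jsd 2. Its groups overlapped, unlike those of Pls1. Whether the change of Pls1 differed from that of Pls3 was not tested. Fscn1, which packs filaments of filopodia, stood at 7.90, 7.93 and 7.59 on the jsd side and at 7.97, 8.74 and 8.09 on the SCARKO-jsd side. The groups were only just apart, and SCARKO-jsd 2 was highest. The difference of 0.46 ± 0.20 (limma, Benjamini-Hochberg adjusted p = 0.294) became 0.23 without that array, and the other bright probe set gave 0.06.

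The alpha-actinins, which crosslink filaments in antiparallel order, differed by -0.17 ± 0.14 for Actn1 and by -0.03 ± 0.083 for Actn4. On the probe set used, Actn1 was at -0.33 without SCARKO-jsd 2 (limma, Benjamini-Hochberg adjusted p = 0.0798), and its other bright probe sets gave -0.07 and 0.0003 with all arrays. Eps8, which caps barbed ends and bundles filaments, came to 10.60, 10.45 and 10.24 for jsd and to 10.31, 10.90 and 10.25 for SCARKO-jsd. Its difference of 0.05 ± 0.19 turned to -0.15 without SCARKO-jsd 2, the highest array of the 6. Palld, a scaffold that binds alpha-actinin, was 8.28 to 8.49 in jsd and 8.53 to 8.66 in SCARKO-jsd, a difference of 0.22 ± 0.094 (limma, Benjamini-Hochberg adjusted p = 0.273), with 0.31 on its other bright probe set and 0.14 and 0.36 on dim ones.

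For branched actin, no measured gene of the list passed. Actr3, a core subunit of the Arp2/3 complex, ran 11.21, 11.21 and 11.38 across the jsd arrays, then 11.32, 11.64 and 11.37 across the SCARKO-jsd arrays, a difference of 0.18 ± 0.11, and its remaining bright probe sets gave 0.28 and 0.17. The groups overlapped on the probe set used, and the difference was 0.08 without SCARKO-jsd 2. Wasl, the N-WASP activator of Arp2/3, was 10.33 to 10.50 in jsd and 10.53 to 10.64 in SCARKO-jsd (0.15 ± 0.089), but its other bright probe sets gave -0.09 and -0.43. The last of these had SCARKO-jsd 2 at 7.31, under the 8.67 to 8.90 of all other arrays. The direction of Wasl is thus unsettled. Cttn, or cortactin, which stabilises branches, differed by 0.13 ± 0.13, and its other bright probe sets ran from -0.26 to 0.07.

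Of the plaque genes named singly (Vcl, Tln1, Zyx and Tes), Zyx had the smallest p and did not pass. For zyxin, a LIM protein of stress fibres and adhesions, log2 expression stood at 11.13, 10.89 and 11.04 on the jsd side and at 10.59, 10.88 and 10.59 on the SCARKO-jsd side. The groups were apart, though jsd 2 and SCARKO-jsd 2 were nearly equal. The difference was -0.33 ± 0.12 (SE; limma, Benjamini-Hochberg adjusted p = 0.184) with all arrays and -0.43 ± 0.098 (0.0392 by the same test) without SCARKO-jsd 2. A dim second probe set of Zyx gave -0.19 with all arrays.

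Vcl, or vinculin, which ties actin to adhesion receptors and whose promoter is shown above, came to 11.36, 11.20 and 11.08 for jsd and to 10.89, 11.26 and 10.81 for SCARKO-jsd. As for Espn and Zyx, SCARKO-jsd 1 and 3 lay under all jsd arrays and SCARKO-jsd 2 was the highest of its group. The difference was -0.23 ± 0.14 (limma, Benjamini-Hochberg adjusted p = 0.446) and -0.36 ± 0.11 without SCARKO-jsd 2 (0.0855 by the same test). A second bright probe set gave -0.84, with overlapping groups. Tln1, or talin, which activates integrins, differed by 0.07 ± 0.092, and Tes, or testin, by 0.02 ± 0.15, which turned to -0.08 without SCARKO-jsd 2. A dim second probe set of Tes gave -0.28.

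Genes with several bright probe sets show how far 1 probe set can be trusted. Of 27 other bright probe sets in 15 genes, 18 had the sign of the probe set used and 9 the opposite. Those of Myo10, Vcl, Palld, Fscn1, Actr3, Myo6, Myo9a and Myo1f shared 1 sign within each gene, as the plot of probe sets shows, while those of Wasl, Cttn, Tln1, Eps8, Myo1c, Myo5a and Actn1 did not. The largest of the 9 was -0.43, in Wasl. On that probe set SCARKO-jsd 2 lay under all other arrays. The same held for those of Tln1 (-0.29), Cttn (-0.26) and Myo1c (-0.11) among the 9. The signs were not counted again without that array.

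**Figure D3:**
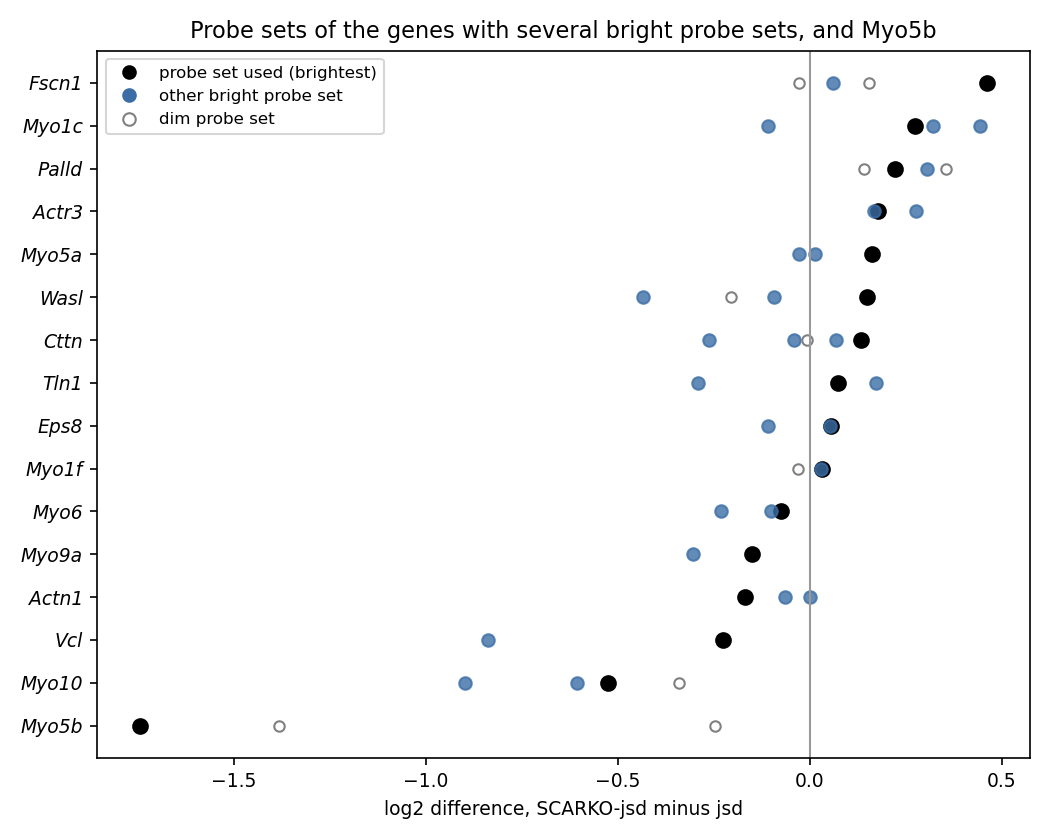
Log2 difference between SCARKO-jsd and jsd testes for every probe set of the 15 genes with several bright probe sets and of Myo5b (black, the probe set used; blue, other bright probe sets; open, dim probe sets). All bright probe sets of Myo10 and Vcl lie below 0, and those of Wasl and Cttn lie on both sides.

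Beyond these genes, single members of the wider actin and myosin pathway changed, and each list was read against the 3.57% called over all genes. Among 24 tested bundling and crosslinking genes Dbn1 and Pls1 rose, 0 fell and 22 did not pass, with a median log2 difference of -0.01. Dbn1, or drebrin, which binds along filaments and is found at the ectoplasmic specialization, ran 6.87, 7.21 and 6.93 across the jsd arrays, then 8.42, 8.40 and 7.94 across the SCARKO-jsd arrays, with no overlap. That is a difference of 1.25 ± 0.16 (limma, Benjamini-Hochberg adjusted p = 0.00766), or 1.17 without SCARKO-jsd 2, and it did not pass without jsd 1 (adjusted p = 0.0549 by the same test). A dim second probe set gave 0.65.

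Among 17 tested Rabs and cargo adaptors of class V and VI myosins, Rab11fip1 fell, 0 rose and 16 did not pass (median -0.06). Rab11fip1, an effector of the recycling Rab11 proteins, stood at 7.92, 7.93 and 7.83 on the jsd side and at 6.89, 7.05 and 6.87 on the SCARKO-jsd side. The groups were well apart, and the difference of -0.96 ± 0.090 (limma, Benjamini-Hochberg adjusted p = 0.00261) passed with any 1 array left out, though a dim second probe set gave 0.002 and the mean of both -0.48, which passed. Rab11fip2, which links Rab11 to Myo5b, differed by -0.12 ± 0.12 and Rab11a itself by -0.01 ± 0.086, both named after their values were seen. Lrsam1, a ubiquitin ligase, had a difference of 0.38 (limma, Benjamini-Hochberg adjusted p = 0.0663).

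**Figure D4:**
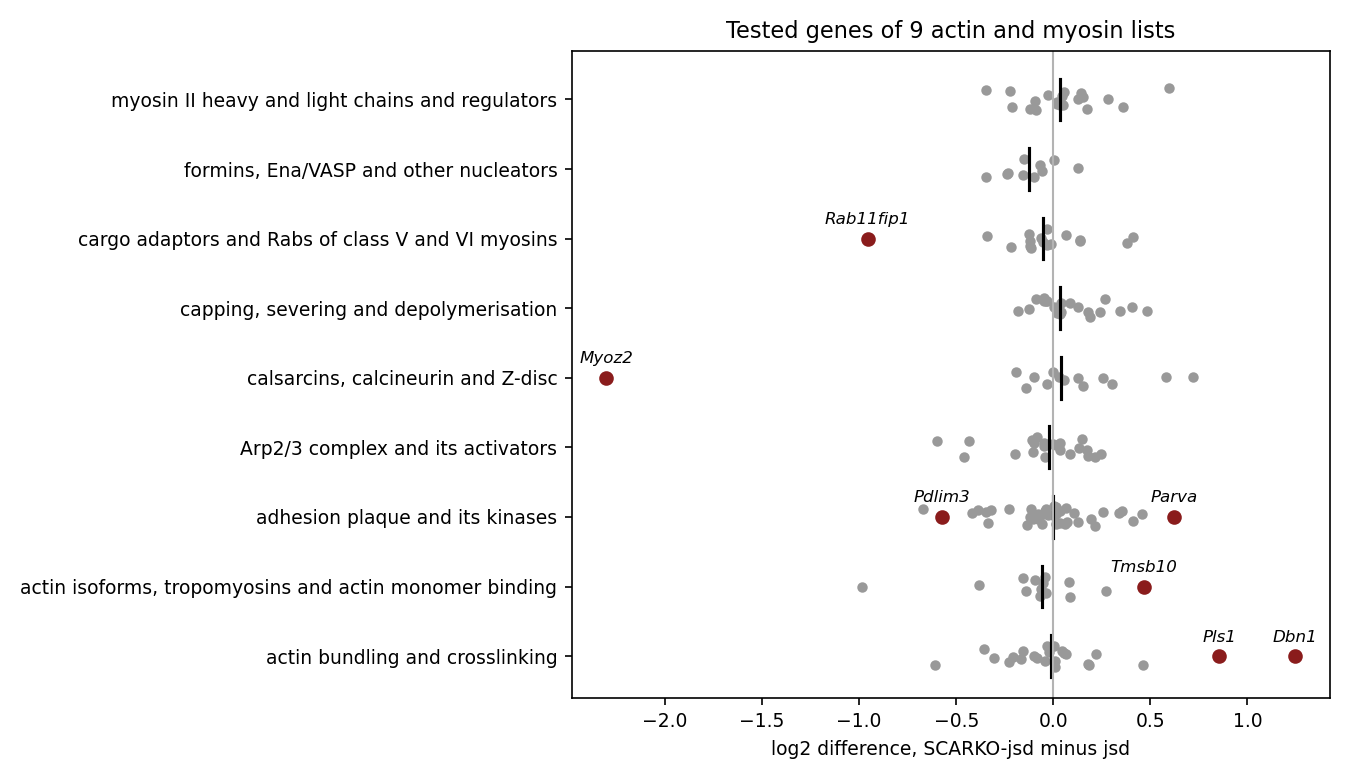
Log2 difference between SCARKO-jsd and jsd testes for the tested genes of 9 actin and myosin lists (dots; red and named where past the threshold, with a black line at the median of each list). The list medians lie between -0.13 and 0.04, and 7 genes are past the threshold.

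In the adhesion plaque and its kinases, 39 genes were tested, of which 1 fell, 1 rose and 37 were not called, with a median of -0.002. Pdlim3, a LIM protein that binds alpha-actinin, came to 9.57, 9.60 and 9.48 for jsd and to 9.04, 9.01 and 8.87 for SCARKO-jsd, and Parva, a parvin that joins integrin-linked kinase to actin, ran 8.72, 8.57 and 8.54 across the jsd arrays, then 9.09, 9.48 and 9.14 across the SCARKO-jsd arrays. Neither overlapped between the groups. The difference of Pdlim3 was -0.57 ± 0.089 (limma, Benjamini-Hochberg adjusted p = 0.0166), a call that ended with median centring (0.0672), with every probe set tested by itself (0.0543) or if jsd 1, jsd 2 or SCARKO-jsd 3 was left out (up to 0.0969). Parva differed by 0.62 ± 0.12 (limma, Benjamini-Hochberg adjusted p = 0.0399). It lost its call when any jsd array or SCARKO-jsd 3 was removed (up to 0.164), with median centring (0.0749), with the replicate block (0.0517), with every probe set tested by itself (0.108) and when its probe sets were averaged (0.27, 0.226), one of which, dim, gave -0.09.

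Tmsb10, a thymosin that holds actin monomers, rose, the only called gene among 14 tested actins, tropomyosins and monomer-binding proteins (0 fell, median -0.06). It stood at 12.68, 12.68 and 12.85 on the jsd side and at 13.17, 13.11 and 13.32 on the SCARKO-jsd side, a difference of 0.47 ± 0.099 (limma, Benjamini-Hochberg adjusted p = 0.0493), and other bright probe sets gave 0.59 and 0.60. The call lay near the threshold and was lost when an array other than SCARKO-jsd 2 was removed (up to 0.214), when probe sets were averaged (0.0643), with no filter on dim genes (0.0618), with every probe set tested by itself (0.122), and with median centring (0.0663), quantile normalization (0.0538) or the replicate block (0.0591). In that list Tpm4, a tropomyosin, was at 0.27 and did not pass. Gamma-actin (Actg1), named after its value was seen, differed by -0.06 ± 0.11.

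In the list of calsarcins, calcineurin and the Z-disc Myoz2 was the called gene, and 13 of 14 did not pass (median 0.04). In 4 lists 0 genes passed by limma. These were the Arp2/3 complex and its activators (23 tested, median -0.02), capping, severing and depolymerisation (22, 0.04), formins and Ena/VASP (10, -0.13) and myosin II with its light chains and regulators (21, 0.04). At an unadjusted p under 0.05 they held 2, 2, 0 and 3 genes in that order, against 1960 of all 10916 genes tested. Nearest to the threshold were Wipf3, a partner of N-WASP (-0.60 ± 0.13; limma, Benjamini-Hochberg adjusted p = 0.0533), Capg, a capping protein (0.48 ± 0.11; 0.0559), and Myh14, a nonmuscle myosin II (0.60 ± 0.15; 0.0792). None of the 3 overlapped between the groups, and all 3 passed without SCARKO-jsd 2, as did Nck2, an adaptor of N-WASP signalling (-0.53). Add3, Itga6, Pdlim5, Tns3, Dynll1 and Ppp3cc, chosen after their values were seen, also passed without that array, all lower. Over all genes that fit called 300 higher and 468 lower. The other genes with the smallest p in their lists were Ssh1 (0.35), a cofilin phosphatase, Ppp1r12b (0.36), a subunit of myosin phosphatase, Synpo (0.72), an actin-binding protein, and the formins Daam2 (-0.34) and Inf2 (-0.24).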

How the data were processed

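Total RNA of testes was hybridised to Affymetrix arrays. The authors deposited log2 expression per probe set, which the submitters' processing notes credit to affy and RMA without a version. RMA scales arrays to each other, which can hide a shift of most transcripts, yet the deposited medians were not equal (6.26 in SCARKO-jsd 2 and 6.40 to 6.41 otherwise). GEO's platform annotation gave 1 symbol for 34958 of 45101 probe sets, 932 had several and 9211 none, and all 40 genes matched the RefSeq table (GRCm38.p6) by gene ID. The labels also write SCARKO-jsd as SCARCO-jsd and SCARO-jsd. They do not tie arrays to mice, so p-values measure the spread between these samples.

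For each gene the brightest probe set by its mean of all 6 arrays was used, and genes in the lowest 40% of that mean were left out. Genotype alone was tested in R 4.3.3 with limma 3.58.1 (eBayes without a trend), two-sided, with Benjamini-Hochberg adjustment over 10916 genes and a threshold of 0.05. The fit was tested on simulated data. Probe sets were also fitted singly. Summed marker levels are log2 of summed linear values. The median SE was 0.11, and 3 arrays per group limit the precision. Alternatives were other filters, the mean of probe sets, median centring, quantile normalization, trend and robust priors, a replicate block, a threshold of 0.1 and each array left out. Same-numbered arrays were not taken as pairs. Their deviations correlated at -0.21, 0.23 and 0.24, which cannot show whether they were pairs, since differently numbered arrays were not compared. Named genes are all measured members, with values by array for those past the threshold, those without overlap that differ by at least 0.3, and Espn, Vcl, Actr3, Eps8 and Pls3, and from each pathway list the called genes (by array) and the 2 with the smallest p. Members and lists were chosen with earlier results of these data known. The knocked-out gene is not reported here. Figures were drawn with matplotlib 3.10.9.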

Additional observations from a re-analysis of the deposited data

How the results depend on the processing

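Over all genes, 390 were called (194 higher, 196 lower), 768 without SCARKO-jsd 2, 78 without jsd 1, 189 with every probe set by itself and 728 at a threshold of 0.1, and between 78 and 768 with 1 array left out. The members called numbered 3, between 2 and 6 with 1 array left out, and 1 with a filter on the lowest 60%, which left 20 members and removed Myo5b and Pls1. Myoz2 passed in all 14 alternatives and Myo5b in all 13 that kept it, between -1.93 and -1.12. The replicate block gave 397 genes (214 higher, 183 lower) and the same 3 members, and changed no call among them. Median centring gave 263 genes (150 higher, 113 lower). With every probe set by itself Pls1 had a limma, Benjamini-Hochberg adjusted p of 0.0669. Differences near 0 changed sign: with the mean of probe sets Cttn (-0.023), Eps8 (-0.0011), Myo9b (-0.13), Tes (-0.13), Tln1 (-0.015) and Wasl (-0.15), with median centring Actn4 (0.013) and Myo7a (0.0037), with a further quantile normalization Myo5a (-0.028), and with arrays left out Actn4 (-0.053 to 0.0023), Eps8 (-0.15 to 0.17), Myo19 (-0.034 to 0.27), Myo1e (-0.059 to 0.29), Myo1f (-0.020 to 0.064), Myo7a (-0.13 to 0.021) and Tes (-0.11 to 0.12). Median centring moved every difference up by the same amount, past 0 for Actn4 (-0.03 before) and Myo7a (-0.04 before). It left the brightest probe set of each gene the same. The mean of probe sets takes in dim ones, such as those of Myo9b at -0.49 and 0.03 and that of Tes at -0.28. After quantile normalization the brightest probe set was chosen anew. For Myo5a the brightest probe sets had nearly equal means (8.165 and 8.162) and differences of 0.16 and -0.03. Other causes of the changes of sign were not tested. Signal near the dim limit restricts what can be said of Myo15b, Myo1e, Myo1f and Tes.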

Other observations

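Cap1, a protein that recycles actin monomers, was lower in a single array. In SCARKO-jsd 3 log2 expression was 7.20, while the other 5 arrays lay between 10.07 and 10.44. A second probe set was at 5.79 there and between 9.22 and 9.75 elsewhere, so both probe sets put SCARKO-jsd 3 far under the rest. The gene did not pass (limma, Benjamini-Hochberg adjusted p = 0.542), and it was chosen after its values were seen.

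SCARKO-jsd 2 was the highest of the 6 arrays for 25 of the 57 bright probe sets of the actin and myosin genes, against 2 to 15 for the other arrays. The same count was not made over all probe sets, and this array stood apart over all genes, so nothing particular to these genes is read from it. For a few of the 57 probe sets SCARKO-jsd 2 was far the lowest instead. A talin probe set other than the one used (Tln1) was 5.69 in SCARKO-jsd 2 and 7.02 to 7.56 elsewhere, one of Wasl was 7.31 against 8.67 to 8.90, and one of Myo10 was 8.60 against 9.51 to 10.32. Beta-actin (Actb) had 13.15 there, under the range of 14.21 to 14.33 of the remaining arrays, and Tns1, a tensin of adhesion plaques, 9.65 against 11.45 to 11.78. The array also had the largest gap between 3' and 5' probe sets, both for beta-actin (1.66 log2 units) and for Gapdh (0.64). The part of these gaps in the values above was not tested.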
